A study of Mus musculus with 6 samples.

Results

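The CCN family and a group of genes that respond to the coactivator YAP were followed in mouse cardiac fibroblasts in which Cre was used to delete *Tet3*, a dioxygenase that oxidizes methylated cytosine in DNA. The members were chosen by gene symbol, namely *Ccn1*, *Ccn2*, *Ccn3*, *Ccn4*, *Ccn5*, *Ankrd1*, *Amotl1*, *Amotl2*, *Nuak2* and *Axl*. Each of these 10 symbols matched a single row among the 22063 genes measured. Primary fibroblasts came from hearts of mice with floxed *Tet3* alleles and were transduced in culture with an adenovirus, 3 libraries (GFP) with one coding for green fluorescent protein and 3 (CRE) with one coding for Cre recombinase, which cuts out DNA between loxP sites. Both viruses used the CMV promoter and carried EGFP per the methods of the study, all 6 libraries came from cells exposed to TGF-β, and unexposed cells were not analysed here. The age of the mice was not given in the sources used here. The legend of the study's figure with the RNA-seq states 3 biological replicates. Whether these were separate animals or cultures was not given, so p-values measure the spread between these libraries only.

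CCN proteins are secreted matricellular proteins that bind integrins, proteoglycans and growth factors, and CCN2, long known as connective tissue growth factor, is a classical partner of TGF-β in fibrosis. YAP and its paralog TAZ are carried into the nucleus when the kinases of the Hippo pathway are inactive, for example in spread cells on stiff matrix, and there bind DNA through TEAD factors. *Ccn1*, *Ccn2*, *Ankrd1*, *Amotl2*, *Nuak2* and *Axl* are textbook targets of this complex, while the proteins encoded by *Amotl1* and *Amotl2* bind YAP themselves and hold it in the cytoplasm. In fibroblasts *Ccn1* and *Ccn2* also respond within minutes to growth factors and serum, as immediate early genes do.

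The DNA just before the start of *Ccn1* is shown because it holds the letters of a TEAD site and of a TATA box. The window is the 250 bases before the RefSeq start (chr3:145649986-145650235 in GRCm38.p6, minus strand), written 5′ to 3′ on the strand of the gene, with TEAD letters (GGAATG or, on the opposite strand, CATTCC) and the TATA box (TATAAA) in capitals.
Ccn1: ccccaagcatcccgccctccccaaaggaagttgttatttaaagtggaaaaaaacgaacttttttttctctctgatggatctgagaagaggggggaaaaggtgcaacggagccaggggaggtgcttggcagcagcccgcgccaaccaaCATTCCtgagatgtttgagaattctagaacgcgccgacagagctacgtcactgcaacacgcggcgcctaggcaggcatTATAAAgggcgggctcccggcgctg
In it the TEAD letters lay at -103 to -98 on the opposite strand and the TATA box at -25 to -20. Windows were found in the RefSeq table for 5 of the 10 members (*Ccn1*, *Ankrd1*, *Amotl1*, *Amotl2* and *Axl*). *Ccn2*, *Ccn3*, *Ccn4*, *Ccn5* and *Nuak2* had none. The TEAD letters stood in 4 of the 5, all but *Amotl1*, and in 12.6% of 32851 windows of the same length. Only 1 start was searched for each of these members. The *Amotl1* window (chr9:14615001-14615250) lies well inside the gene as annotated (positions 14541966 to 14645056, minus strand). Those of *Ankrd1* and *Amotl2* also lie within their annotated genes. Other starts of these genes were not searched. The 30 bases around each of the 5 matches are set out below, turned so that the motif reads alike, with its letters in capitals. The site of *Ccn1* is at chr3:145650071-145650100 on the plus strand, and on the minus strand are those of *Ankrd1* (chr19:36120037-36120066 and chr19:36119950-36119979), *Amotl2* (chr9:102717727-102717756) and *Axl* (chr7:25788949-25788978), all in GRCm38.p6.
Ccn1, from -103: tcaaacatctcaGGAATGttggttggcgcg
Ankrd1, from -210: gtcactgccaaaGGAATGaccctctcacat
Ankrd1, from -123: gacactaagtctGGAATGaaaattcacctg
Amotl2, from -65: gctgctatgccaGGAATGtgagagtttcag
Axl, from -233: ggaaattctacaGGAATGtttaccagaccc
No window of these members held the AP-1 letters TGANTCA (6.75% of all windows) or a CArG box of SRF (1.47%), and TATAAA was present in *Ccn1* alone (12.4% of all windows). A match describes letters and is not a measured binding site.

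Libraries held between 17002126 and 20343590 counts over all genes. *Tet3* was checked first and had between 965 and 1044 counts in GFP and between 637 and 649 in CRE libraries, which puts the log2 ratio of CRE to GFP (log2FC) at -0.72 (SE 0.08). In CPM, 60.8% of the GFP level was left. Fibroblast markers were abundant, with a sum over 10 genes between 29301 and 30470 CPM (counts scaled to a common library size, with TMM factors that allow for differences in composition) in GFP and between 18112 and 19522 CPM in CRE libraries. Of those 10 markers 9 were lower in CRE. Sums over 10 endothelial markers were 412 to 456 CPM in GFP and 197 to 228 CPM in CRE, those over 10 smooth muscle and pericyte markers 119.7 to 129 CPM and 94 to 109 CPM, and those over 10 macrophage markers 58.8 to 66.8 CPM and 35.1 to 38.4 CPM. The macrophage sum was mostly *Cd14* and *Lyz2* (28.1 and 23.5 CPM in GFP). *Ptprc*, *C1qa*, *C1qb* and *Cx3cr1* had group means of at most 0.44 CPM and were not tested, and *Csf1r*, *Cd68* and *Itgam* were not called. Of the tested genes of these lists, 9 of 10 endothelial, 5 of 9 smooth muscle and pericyte and 3 of 6 macrophage markers were lower, and 1 smooth muscle and pericyte marker was higher. Mesothelial and epicardial markers summed to at most 11.9 CPM, with 3 of 5 tested genes higher and 1 lower. Over all tested genes, 25.5% were higher and 25.7% lower at the threshold given below. The part of these other cell types in the results was not tested, and in bulk RNA fewer cells of a type cannot be told apart from less RNA per cell.

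The members moved in both directions. *Nuak2*, *Ccn2*, *Ccn1* and *Ankrd1* were higher in CRE than in GFP libraries, *Ccn3*, *Ccn5* and *Axl* were lower (the last pair not when libraries were scaled by size alone), and *Ccn4*, *Amotl1* and *Amotl2* did not pass the threshold (quasi-likelihood test of edgeR, Benjamini-Hochberg adjusted p under 0.05). All 10 members passed the filter on low counts. Of them 7 were called, where 51.2% of 12862 tested genes were, 25.5% as higher and 25.7% as lower. The same 7 had groups that did not overlap on the CPM scale, as did 59.6% of all tested genes. The median log2FC of the members was 0.09, beside 0.01 over all tested genes. At a fold change beyond the threshold of the study (over 1.5 or under 0.66, with an unadjusted p under 0.05) 3 members were higher, *Nuak2*, *Ccn2* and *Ccn1*, where 7.52% of tested genes were, and 1 was lower, *Ccn3*, where 10.3% were. With 3 libraries against 3 an exact two-sided permutation test of single genes cannot go below p = 0.1, the value that each of these 7 gave.

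**Figure D1:**
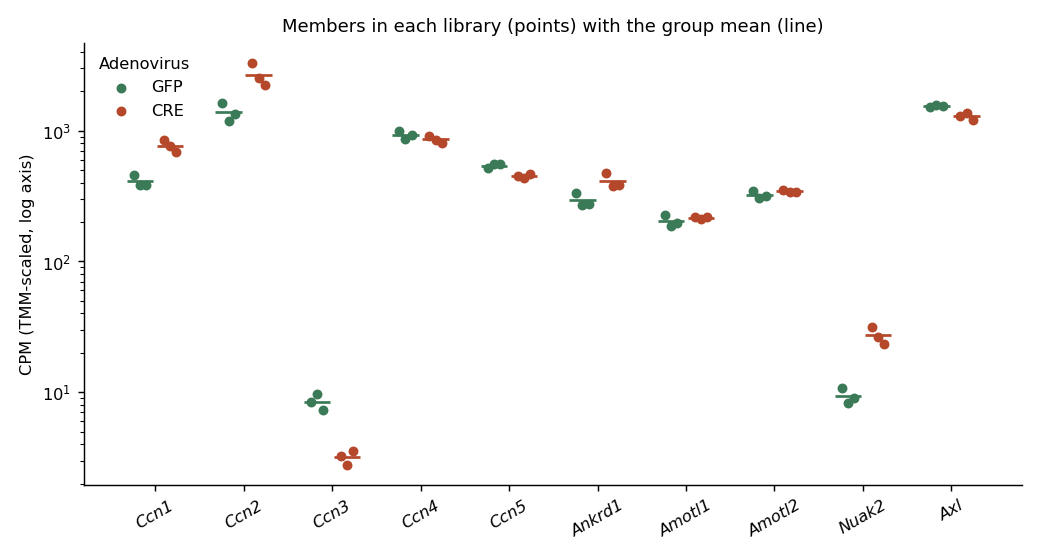
CPM of each member (log axis) in the 3 GFP (green) and 3 CRE (red) libraries, with the group mean as a line. *Nuak2*, *Ccn2*, *Ccn1* and *Ankrd1* sit higher in all CRE libraries, *Ccn3*, *Ccn5* and *Axl* lower, and the groups of *Ccn4*, *Amotl1* and *Amotl2* overlap.

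Among the CCN genes, *Ccn2* and *Ccn1* rose together. *Ccn2* (chromosome 10, positions 24595442 to 24598683, GRCm38) had 26438, 21066 and 25797 counts in GFP replicates 1, 2 and 3 and 61607, 45867 and 42133 in the CRE replicates. The lowest CRE library held far more *Ccn2* than the highest GFP library, though both groups were wide. On the CPM scale the mean went from 1391 ± 232 to 2692 ± 558 (SD, n = 3, log2FC 0.95, SE 0.14, edgeR adjusted p = 0.000324). *Ccn1*, whose protein CYR61 supports adhesion, migration and, in wounds, senescence of myofibroblasts, lies on chromosome 3 (positions 145646976 to 145649981). Its counts were 7383, 6840 and 7401 in GFP and 15923, 13841 and 12951 in CRE libraries, again with no overlap. The mean CPM was 409.7 ± 42.7 in GFP and 768.6 ± 85.9 in CRE (SD, n = 3, log2FC 0.91, SE 0.09, edgeR adjusted p = 1.94e-05). The ratio of *Ccn2* to *Ccn1* FPKM (fragments per kilobase of transcript, scaled to sequencing depth by the authors, so that genes of different length can be compared) was between 2.59 and 3.01 in GFP and between 2.74 and 3.27 in CRE libraries, ranges that overlap. An RNA on the opposite strand, Gm15270, overlaps *Ccn2*, and since the strand setting of the counting was not stated its reads could not be told apart.

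*Ccn3*, *Ccn5* and *Ccn4* did not follow them. *Ccn3* (chromosome 15, positions 54745702 to 54754039), which codes for a CCN protein that in several systems opposes CCN2, was scarce, with 136, 171 and 140 counts in GFP and 60, 50 and 67 in CRE libraries. All CRE values lay under all GFP values. Its CPM fell from 8.46 ± 1.18 to 3.18 ± 0.39 (SD, n = 3, log2FC -1.41, SE 0.16, edgeR adjusted p = 4.61e-05). *Ccn5* (chromosome 2, positions 163820861 to 163833146) codes for the member that lacks the C-terminal cystine knot module and has been described as antifibrotic in heart. It stood at 516, 553 and 552 CPM in GFP and 448, 433 and 470.1 CPM in CRE libraries, which is a narrow gap between tight groups. The difference passed (log2FC -0.26, SE 0.05, edgeR adjusted p = 0.00116). *Ccn4* (chromosome 15, positions 66891320 to 66923201), first described as a target of Wnt signalling, had 993, 857 and 926 CPM in GFP and 917, 855 and 812 CPM in CRE libraries. These ranges overlap, and the difference did not pass (log2FC -0.10, SE 0.06, edgeR adjusted p = 0.189).

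The family as a whole changed in amount and in makeup. Summed FPKM of the 5 genes was 1336, 1119 and 1194 in GFP and 2369, 1979 and 1802 in CRE libraries, which do not overlap. That sum depends on scaling, since FPKM carry no correction for composition. On log2(FPKM + 1) values the median log2FC over all tested genes was 0.13. *Ccn2* made up 44.9% ± 3.32 of the summed FPKM in GFP and 57.6% ± 3.54 in CRE (SD, n = 3), and *Ccn1* 15.8% ± 0.58 and 19.7% ± 0.80. The share of *Ccn5* went from 24.6% ± 3.06 to 13.7% ± 2.25 and that of *Ccn4* from 14.5% ± 0.36 to 8.96% ± 0.73, while *Ccn3* held at most 0.284% in any library. Ratios within a library do not depend on how libraries were scaled to each other. *Ccn2* over *Ccn5* FPKM was 2.28, 1.54 and 1.75 in GFP and 5.30, 4.20 and 3.39 in CRE libraries. *Ccn2* over *Ccn4* was between 2.86 and 3.43 in GFP and between 5.72 and 7.55 in CRE libraries, so these ratios also did not overlap between groups (exact permutation p = 0.1 for each, the smallest possible, in a family of 7 ratios). *Ccn6*, which completes the family, had no count in GFP libraries and 1, 0 and 2 counts in the CRE libraries, too few to test.

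**Figure D2:**
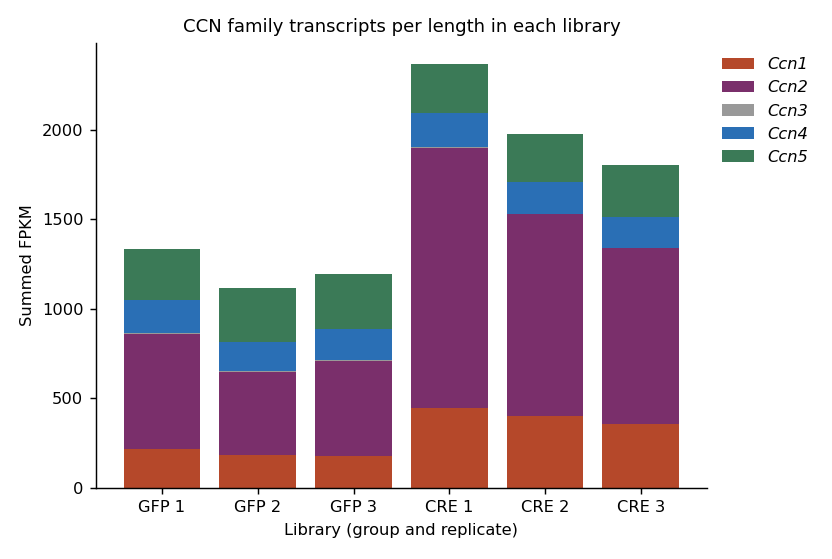
Stacked FPKM of the CCN genes in each library, in the authors' FPKM. The summed bar is between 1119 and 1336 in GFP and between 1802 and 2369 in CRE libraries, with the growth in *Ccn2* and *Ccn1*. *Ccn3* is too low to be seen.

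*Nuak2* and *Ankrd1* were higher as well. *Nuak2* (chromosome 1, positions 132316126 to 132333488) codes for a kinase related to AMPK that promotes actomyosin contraction and YAP activity. It had 174, 146 and 174 counts in GFP and 590, 478 and 442 in CRE libraries, so the lowest CRE library held more than any GFP library by a wide margin. From 9.36 ± 1.32 CPM it reached 27.2 ± 4.22 CPM (SD, n = 3, log2FC 1.54, SE 0.13, edgeR adjusted p = 8.74e-06). This was the largest rise among the members, and 191 of the tested genes had a higher log2FC. *Nuak1*, its close relative, remained the more abundant of the pair per length, at 27.6 ± 2.25 FPKM in GFP and 29.0 ± 1.89 FPKM in CRE (SD, n = 3), and did not pass the threshold (edgeR adjusted p of 0.383). The ratio of *Nuak1* to *Nuak2* FPKM went from 9.73 ± 0.61 to 3.16 ± 0.28 (SD, n = 3), with no overlap. *Ankrd1* (chromosome 19, positions 36111961 to 36120099) codes for the cardiac ankyrin repeat protein, found at the sarcomere and in the nucleus of heart muscle cells and induced in fibroblasts by stretch. Its counts of 5413, 4781 and 5339 in GFP and 8835, 6857 and 7238 in CRE libraries did not overlap. It rose 1.40-fold, from 294 ± 36.6 to 412 ± 54.1 CPM (SD, n = 3, log2FC 0.49, SE 0.10, edgeR adjusted p = 0.00248). Markers of heart muscle cells were near 0 in these libraries. The 12 cardiomyocyte markers summed to between 0.902 and 1.20 CPM in GFP and between 1.21 and 1.61 CPM in CRE libraries, with *Myh6* and *Myl7* at 0 in all 6, and none of the 12 had enough counts to be tested.

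*Axl* (chromosome 7, positions 25757273 to 25788705), a receptor tyrosine kinase of the TAM family that binds GAS6, had 1510 (replicate 1), 1583 and 1552 CPM in GFP and 1292, 1366 and 1219 CPM in CRE libraries. The groups were close but did not overlap, with a log2FC of -0.26 (SE 0.05, edgeR adjusted p = 0.00125). Its TAM relatives *Tyro3* and *Mertk* were higher (log2FC values of 0.35 and 0.49), but at 7.22 ± 0.24 and 1.28 ± 0.12 FPKM in GFP they were minor (SD, n = 3) beside *Axl* at 368 to 396 FPKM. The ligand *Gas6* had a log2FC of 0.13 (SE 0.06) and did not pass (edgeR adjusted p of 0.0960).

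The angiomotin-like genes did not pass the threshold under TMM scaling. *Amotl2* (chromosome 9, positions 102716672 to 102733418) had 345, 303 and 316 CPM in GFP and 355, 340.3 and 337 CPM in CRE libraries. *Amotl1* (chromosome 9, positions 14541966 to 14645056) had 228, 188 and 198 CPM in GFP and 218, 213 and 217 CPM in CRE libraries, which places all CRE libraries within the GFP range. The RNAs 4930584E12Rik (same strand) and Gm34263 (opposite strand) overlap this gene. The log2FC of *Amotl2* was 0.10 (SE 0.05) and that of *Amotl1* 0.08 (SE 0.07), with edgeR adjusted p of 0.148 and 0.357. GFP replicate 1 decided both calls, since without it the changes were 0.15 and 0.16 with adjusted p of 0.0196 and 0.0140. *Amot*, the founding member of that family, was far lower in level, at 1.61 ± 0.21 FPKM in GFP, and rose to 4.25 ± 0.46 FPKM in CRE (SD, n = 3, log2FC 1.15, SE 0.09).

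The calls of *Ccn5*, *Axl*, *Amotl1* and *Amotl2* depended on how libraries were scaled. Scaling by library size alone in place of TMM shifted the median over all tested genes by 0.16, and the share of called genes that were higher from 49.8% to 72.6%. *Nuak2*, *Ccn2*, *Ccn1*, *Ankrd1* and *Ccn3* kept their calls with log2FC values of 1.70, 1.11, 1.07, 0.65 and -1.24. *Ccn5* and *Axl* then stood at -0.10 each and no longer passed (edgeR adjusted p of 0.0963 and 0.110), while *Amotl1* and *Amotl2* passed as higher (0.24 and 0.26), so that 6 members were higher and 1 lower. On log2(FPKM + 1) values tested with limma, 5 were higher and 1 lower, with *Amotl2* higher (0.28) and *Amotl1* not called (0.08).

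**Figure D3:**
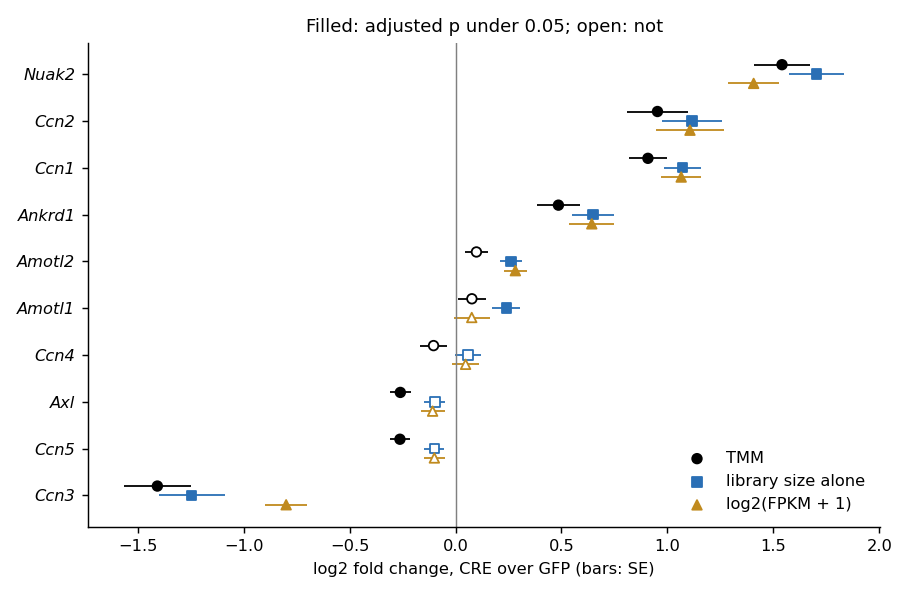
Log2FC of each member, CRE over GFP, with its SE, under TMM (black), library size alone (blue) and log2(FPKM + 1) (yellow), filled where the adjusted p is under 0.05. *Nuak2*, *Ccn2*, *Ccn1*, *Ankrd1* and *Ccn3* are filled in all 3, and *Axl* and *Ccn5* under TMM only.

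Per length, *Ccn2* was the most abundant member in both groups, at 548 ± 90.6 FPKM in GFP and 1187 ± 243 FPKM in CRE (SD, n = 3), ranks 94 and 23 of 22063 genes. In GFP libraries *Axl*, *Ccn5*, *Ccn1*, *Ccn4*, *Ankrd1*, *Amotl2*, *Amotl1*, *Nuak2* and *Ccn3* followed in that order. Of neighbours in the order, *Ccn1* (192 ± 19.7 FPKM) and *Ccn4* (176 ± 12.5 FPKM) overlapped in their libraries, as did *Nuak2* (2.85 ± 0.40 FPKM) and *Ccn3* (2.78 ± 0.39 FPKM). In CRE libraries *Ccn1* came next after *Ccn2* and overlapped with *Axl*, *Ankrd1* stood above *Ccn4*, and no other neighbours overlapped. *Nuak2* and *Ccn3*, alike in GFP, were apart in CRE at 9.24 ± 1.40 and 1.17 ± 0.14 FPKM (SD, n = 3).

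Members also varied together within a group. In 7 of the 10 (*Ccn1*, *Ccn2*, *Ccn4*, *Ankrd1*, *Amotl1*, *Amotl2* and *Nuak2*) replicate 1 was the highest GFP library and replicate 1 was also the highest CRE library, as it was in 13.8% of all tested genes. GFP replicate 1 also stood apart over all genes, with a chi-square per degree of freedom of 12.3 and 9.48 against GFP replicates 2 and 3, where those differed by 4.07 from each other and CRE replicates by 4.25 to 5.55. Its part in the lead of replicate 1 was not tested. *Ccn2* in GFP replicate 1 lay 0.25 above its group mean of log2 CPM and in CRE replicate 1 0.32 above, *Nuak2* 0.22 and 0.23, *Ankrd1* 0.20 and 0.21, and *Ccn1* 0.17 and 0.16. For *Amotl1* in CRE the lead was only 0.01. The numbers are names of libraries, and nothing in the labels ties CRE replicate 1 to GFP replicate 1. *Ccn5* and *Axl*, by contrast, were lowest in GFP replicate 1. The same pairing of highest libraries was seen in 4 of 16 other YAP/TAZ targets, 4 of 16 Hippo pathway genes, 5 of 19 early response genes, 7 of 12 TGF-β response genes, 1 of 5 relatives and 0 of 13 receptors and ligands. The median coefficient of variation of the members was 10.4% in GFP and 8.67% in CRE libraries, beside 5.17% and 4.50% over the 8808 tested genes that averaged 10 CPM or more, a set not matched to the members on level. Leaving out GFP replicate 1 or CRE replicate 1 gave log2FC values of 1.09 and 0.78 for *Ccn2*, both called, and replicate 1 did not decide the call of *Ccn1*, *Nuak2* or *Ankrd1* either.

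**Figure D4:**
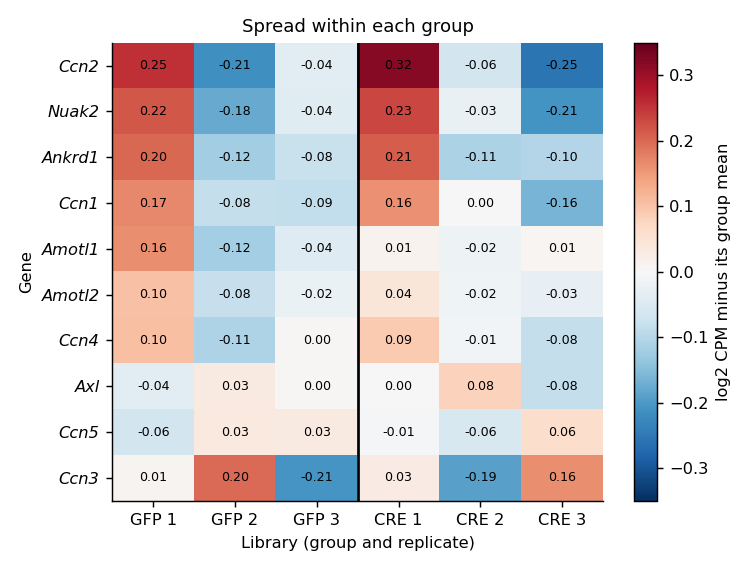
Log2 CPM of each member in each library minus the mean of its own group (colour and printed value). *Ccn2*, *Nuak2*, *Ankrd1* and *Ccn1* are red in replicate 1 of both groups, by 0.16 to 0.32, and *Ccn5* and *Axl* are blue in GFP replicate 1.

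Genes with the most similar pattern were sought by the root mean square difference of log2 CPM, each gene centred on its own mean over the 6 libraries, among the 8808 genes above. Since the centring spans both groups, the measure takes in the log2FC, and near genes are largely those with a similar one. For *Ccn2* the nearest was *Ccn1* (0.11), ahead of *Lrrc75a* (0.12) and *Pxdc1* (0.13). Their log2FC values were 0.91, 0.94 and 0.97, beside 0.95 for *Ccn2*. Among the nearest to *Nuak2* were the anchoring fibril collagen *Col7a1* (0.12) and the antiproliferative gene *Btg2* (0.13). For *Ccn3* the nearest was *Lum* (0.10), a small leucine-rich proteoglycan of collagen matrix, then *Hspb6* (0.11) and the endothelial connexin *Gja4* (0.11).

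Other targets of YAP and TAZ were taken from a published signature of 22 genes, of which 6 are members here. The 16 others did not share one direction. All were tested, 4 were higher, 9 lower and 3 not called, with a median log2FC of -0.18. Of all tested genes, 25.5% were higher and 25.7% lower. *Igfbp3*, a binding protein of insulin-like growth factors, fell from 133 ± 5.32 to 32.2 ± 1.30 CPM (SD, n = 3, log2FC -2.04, SE 0.05). *Ccdc80*, a matrix protein, fell by 0.91 (SE 0.04) on the log2 scale. *Dock5*, an activator of the GTPase Rac, rose by 0.86 (SE 0.07), and *Lats2*, a Hippo kinase and a feedback target, by 0.52 (SE 0.05), with edgeR adjusted p of at most 1.67e-05 for these 4. By library size alone the list had 5 higher and 6 lower, and on log2(FPKM + 1) values 4 and 5.

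Genes of the Hippo pathway, with YAP, TAZ and TEAD among them, were called at a rate near that of all tested genes. Of 16, 5 were higher and 4 lower, beside 25.5% higher and 25.7% lower over all tested genes. Their median log2FC was -0.03. *Lats2* is counted both here and among the other targets. *Yap1* and *Wwtr1*, which codes for TAZ, had log2FC values of -0.09 each and did not pass (edgeR adjusted p of 0.126 and 0.123). *Tead1*, at a GFP mean of 589 CPM against 29.3 CPM for *Tead2*, fell by 0.28 (SE 0.04, edgeR adjusted p = 0.000222). *Tead2* fell by 0.72 (SE 0.06) and the scaffold *Sav1* by 0.56 (SE 0.06). *Stk4*, which codes for the kinase MST1, rose by 0.78 (SE 0.06) and the scarce *Tead4* by 0.82 (SE 0.24), from 2.02 ± 0.60 to 3.56 ± 0.41 CPM (SD, n = 3). The *Tead4* call was lost without GFP replicate 3 or CRE replicate 3 (edgeR adjusted p of 0.0536 and 0.0550). Library size alone made 9 of the 16 higher and 3 lower.

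Receptors and ligands of the members were also counted. Of 13 tested genes of 14, 2 were higher and 3 lower, where 51.2% of all tested genes were called. Library size alone turned this to 8 higher and 1 lower. The fibronectin receptor subunit *Itga5* rose by 0.74 (SE 0.06) and *Itgb3*, which forms a receptor of CCN1 and CCN2, by 0.68 (SE 0.06), both also by library size. *Lrp1*, an endocytic receptor that clears CCN2, fell by 0.48 (SE 0.05) from 4146 ± 238 CPM (SD, n = 3). The Wnt coreceptor *Lrp6* stood at -0.17 (SE 0.05), a call lost by library size and without GFP replicate 2, CRE replicate 1 or CRE replicate 2. Among relatives of the members, 3 of 5 tested genes were higher (*Amot*, *Mertk* and *Tyro3*) and none lower, where 25.5% of all tested genes were higher.

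Early response genes went mostly up. Of 19, 15 were higher, 1 was lower and 3 were not called, with a median log2FC of 0.84. Over all tested genes, 25.5% were higher and 25.7% lower. *Egr1*, a zinc finger factor, rose by 2.42 (SE 0.06), and *Fosb*, a subunit of AP-1, by 3.05 (SE 0.31) from only 0.80 ± 0.37 CPM (SD, n = 3). *Fosl2*, another AP-1 subunit, was the gene that fell, by 0.69 (SE 0.05). Without GFP replicate 3, 12 were higher and 1 lower, and by library size alone 18 and 1. TGF-β response genes were split, with 7 higher and 5 lower of 12. *Il11*, a cytokine, rose by 2.39 (SE 0.20), while the myofibroblast genes *Postn* and *Acta2* fell by 1.79 (SE 0.045) and 1.35 (SE 0.07), each with an edgeR adjusted p of at most 7.61e-06. *Ccn2*, *Ccn1* and *Nuak2* rose in the same libraries in which *Postn* and *Acta2* fell.

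**Figure D5:**
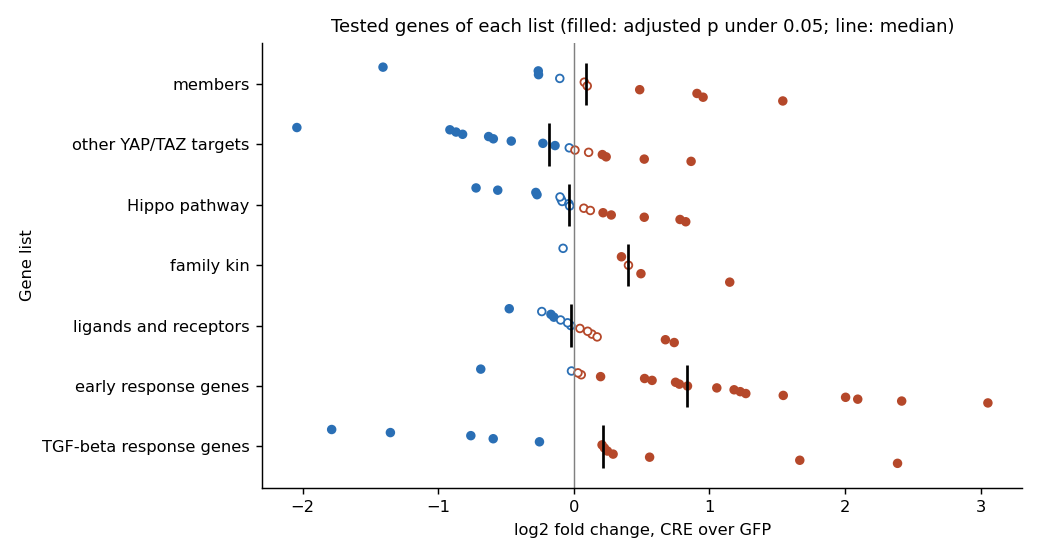
Log2FC, CRE over GFP, of the tested genes of each list (filled where the edgeR adjusted p is under 0.05, red higher, blue lower) with the median as a line. Early response genes lie mostly on the right (15 higher, 1 lower), and other YAP/TAZ targets on both sides (4 higher, 9 lower).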

How the data were processed

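RNA-seq was performed on 6 libraries, grouped by their titles. Per the methods of the study, reads were trimmed (Trimmomatic), aligned with HISAT2 to the mouse genome (GRCm38) and assigned to genes with HTSeq-count by the authors. The raw counts per gene were deposited by the authors, without normalization. FPKM values, which the authors obtained with Cufflinks, were deposited beside them, and are per total reads, so they carry no correction for composition. Tool versions and the strand setting were not given in the sources used here. The labels and the methods name different library kits. The group mean FPKM, the log2 fold change, and the p-value and false discovery rate that the authors deposited hold their own comparison and were not used.

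Counts were tested in R 4.3.3 with edgeR 4.0.16 after filterByExpr (minimum count 10, minimum total 15) and TMM scaling, by the two-sided quasi-likelihood test over all 12862 genes with Benjamini-Hochberg adjustment. The SE is the absolute log2 fold change over the square root of F. Total counts between 17002126 and 20343590 per library set the precision, and scarce genes such as *Ccn3* rest on 50 to 171 counts. Alternatives were RLE, library size alone, upper-quartile scaling, other filters, DESeq2 1.42.0, limma 3.58.1 (voom, and log2 FPKM with a pseudocount of 1 or 0.1), blocking on the replicate number, omission of each library, and the threshold of the study. Coordinates are those of GENCODE M21, which held 99.6% of the gene identifiers. Promoter sequences are from RefSeq (GRCm38.p6). Members and lists were chosen with earlier results of these data known. Named from each list of pathway or related genes, marker lists aside, were up to 2 genes with the highest and 2 with the lowest log2 fold change among those called and any other gene named was picked with its values known. A gene that the rule would name is not reported here. Marker lists held 10 fibroblast, 12 cardiomyocyte, 10 endothelial, 10 smooth muscle and pericyte, 10 macrophage and 6 mesothelial and epicardial genes.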

Additional observations from a re-analysis of the deposited data

How the results depend on the processing

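*Tet3* kept its call in all 16 alternatives, with log2 fold changes from -0.78 to -0.55, as did *Ccn1* (0.83 to 1.07), *Ccn2* (0.78 to 1.11), *Ccn3* (-1.51 to -0.80), *Ankrd1* (0.38 to 0.65) and *Nuak2* (1.41 to 1.70). *Ccn4*, not called, changed sign under library size alone (0.059), log2(FPKM + 1) (0.048) and log2(FPKM + 0.1) (0.048). The threshold of the study (fold change over 1.5 or under 0.66, unadjusted p under 0.05) called 2290 genes (17.8% of those tested), 4 members (*Ccn1*, *Ccn2* and *Nuak2* higher, *Ccn3* lower) and 6 other YAP/TAZ targets (1 higher, 5 lower), in place of 6583, 7 and 13. Leaving out one library at a time gave between 5641 and 6517 genes, 7 to 9 members and 11 to 13 other YAP/TAZ targets. Of 524 values for 33 genes at the ends of the lists, marker lists included, 516 kept their side of the threshold and 8 lost it (*Lrp6* and *Tead4*), none with a change of sign. With the replicate number as a block, 6633 genes, 7 members (4 higher, 3 lower) and 13 other targets were called, and deviations of same-numbered libraries correlated at 0.05, 0.18 and -0.02 over 12862 genes, which does not establish that the numbers pair the libraries. GFP replicate 1 correlated best with CRE replicate 3 (0.07) and GFP replicate 2 with CRE replicate 2. The block lowered the SE of *Ccn1* from 0.088 to 0.043, of *Ccn2* from 0.143 to 0.063 and of *Ankrd1* from 0.10 to 0.038, and took the higher genes among receptors and ligands from 2 to 4, with 3 lower in both.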

Other observations

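Count divided by FPKM and by total reads gives the transcript length that each FPKM implies. For *Amotl1* it was 7.18, 7.53 and 7.49 kb in GFP and 8.06, 8.51 and 8.31 kb in CRE libraries, with no overlap, and *Ccn4* was the only other member whose groups did not overlap. The remaining 7 members with at least 100 counts in every library overlapped. Groups did not overlap for 15.1% of 9419 genes at that depth, and 2.87% had a ratio as far from 1 as the 1.12 of *Amotl1*. The log2FC of *Amotl1* was 0.24 on counts scaled by library size alone and 0.08 on log2(FPKM + 1) values. GENCODE M21 lists 6 transcripts of *Amotl1*, and reads per exon were not analysed here.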
